A study of Mus musculus with 6 samples.

Results

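L3-S and L3-B are title codes of pooled mouse dorsal root ganglion neurons whose RNA was measured on Affymetrix expression arrays. The comparison of DiI labelled L3-S neurons with control L3-B neurons rests on the 2 L3-S and the 2 L3-B arrays, chosen by title code and paired by size class, which are 4 of the 6 arrays of the study. The L3-B pools were controls of 50 neurons each. The L3-S pools held 20 neurons each that had been labelled retrogradely with DiI, a lipophilic dye that axon endings take up and that spreads back to the cell body. Each code had 1 array of big neurons and 1 array of medium to small neurons. The remaining code, L6-R, had DiI labelled pools of 20 neurons in the same size classes and is used below to show which of the differences it lacks. Total RNA of all pools was isolated with the same kit. What the codes stand for, where the DiI was placed, the strain, age and number of animals, and whether pools came from separate animals are not stated in the sources used. Between L3-S and L3-B the labelling, the code and the pool size differ together, so in every comparison with L3-B below they cannot be told apart. L3-S and L6-R are both DiI labelled pools of 20 neurons, and what their codes differ in is not stated.

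The neurons of touch, position, temperature and pain have their cell bodies in the dorsal root ganglia. Large neurons mostly have myelinated axons and serve touch and the sense of position, whereas many small neurons are nociceptors with thin or unmyelinated axons. Nociceptors are commonly divided into a peptidergic class, which releases substance P and related neuropeptides, and a non-peptidergic class, which binds ligands of the GDNF family through RET. Retrograde labelling marks the neurons whose axons reach the place where the dye was put, so a labelled pool holds the mixture of such classes that innervates that place.

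Values are the deposited signals of 1 probe set per gene, on a linear scale, and differences are those of log2(signal + 32). The added 32 shrinks any difference that involves signals near or under 32, which is close to the background of these arrays. Errors are standard errors (SE) from a limma model of code and size class fitted to all 6 arrays, and a gene counts as called where its adjusted p was under 0.05 over the 9097 genes tested. With 1 array for each code and size class, a gene's own spread is how far its differences between codes depart from each other across the size classes. The model combines this spread (2 residual degrees of freedom) with a prior drawn from all tested genes (6.46 degrees of freedom). A gene's error therefore rests mostly on that prior. The p-values reflect nothing but the spread among these pools, which may be technical. Where a code has a pair of signals, the big pool comes first and the medium to small pool after it. An exact permutation test of 2 arrays against 2 could not go below 0.333. The number of arrays limits the precision. In pooled RNA, fewer cells of a type and less RNA per cell cannot be told apart.

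The 4 arrays carried the same trimmed mean signal of 150 and had median signals of 18.8 to 25.2, and 55.3% to 59.5% of the probe sets on each lay under 32. Neuronal markers were bright on each of the 4 arrays. Nefh, the heavy neurofilament subunit, had signals of 8744 to 12609, Prph, peripherin, of 5059 to 6730, and Isl1, a sensory neuron transcription factor, of 1238 to 2292. Pecam1 and Cdh5 of endothelial cells and Ptprc of leukocytes lay under 32 on each of the 4 arrays, while Ptprb, also endothelial, was at 43.3 on the big L3-S array. The glial genes Fabp7 and Apoe were above 32 on each array and brighter in L3-S, as given with the markers of other cell types. The ratio of the 3' to the 5' Actb probe sets, a measure of RNA and amplification quality, was 13.9 and 3.73 on the big and the medium to small L3-B arrays and 5.42 and 12 on the corresponding L3-S arrays, so it ran in opposite directions in the size pairs. With this ratio as a covariate the model called 512 genes. That fit has fewer residual degrees of freedom than the main model, so its count does not measure the part of RNA quality in the calls. Over the tested genes the big L3-S array correlated at 0.956 with the big and at 0.964 with the medium to small L3-B array, and the medium to small L3-S array at 0.948 and 0.942, so arrays of the same size class were not the most alike.

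Of the 9097 genes tested, 93 (1.02%) differed between L3-S and L3-B. Of these, 84 genes (0.923%) were higher in L3-S and 9 genes (0.0989%) were lower. The higher genes differed by 1.21 to 4.11 on the log2 scale, with a median of 1.83, and the lower genes by 1.21 to 1.96 in size, with a median of 1.42. They were led by the filament gene Ina, the neuropeptide gene Tac1, the synapse organizer Cbln2, the G protein regulator Rgs5 and the sodium pump regulator Fxyd2. The median difference over all genes tested was 0.03, and it was 0.05 for big and 0.03 for medium to small neurons. An unadjusted p under 0.05 was reached by 924 genes. When genes of any level were admitted, 14 genes were called, and when every probe set was tested singly, 0 were called at a smallest adjusted p of 0.0665, with 3225 probe sets at an unadjusted p under 0.05. The count was 202 without the big L3-B array, 193 without the big L3-S array, 61 without the medium to small L3-S array and 171 without the one or the other L6-R array, which enter the fit through its error.

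The called genes were mostly of low to middling level. When the tested genes were divided by mean level into 4 groups of like number, from the lowest to the highest group 26, 33, 17 and 8 genes were higher in L3-S, and 3, 2, 3 and 1 were lower. The median difference over all genes of a group was 0.10, 0.05, 0.02 and -0.02 in the same order. Of the 84 higher genes, 13 had signals under 32 on both L3-B arrays, and such a gene passed the filter on mean level only through the labelled pools. The same holds for any higher gene whose L3-B mean log2 value lay under the filter bound of 6.41. Cbln2 (6.12), Sort1 (6.17), Tpm4 (6.25) and Kit (6.34) were of this kind, with at least 1 L3-B signal above 32. The 13 genes are therefore not all of the higher genes that the filter admitted in this way.

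Most genes did not move alike in both size pairs. The L3-S minus L3-B difference was positive in both pairs for 2562 genes (28.2%), negative in both for 1930 (21.2%) and opposite for 4605 (50.6%). A difference of at least 1 was seen for 445 genes in the big pair and for 566 genes in the medium to small pair, and for 148 genes the same way in both. Every called gene had the same sign in both pairs and no overlap between L3-S and L3-B arrays. Such an absence of overlap was common in the background: both L3-S arrays lay above both L3-B arrays in 22.4% of the genes tested and below them in 16.1%.

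**Figure D1:**
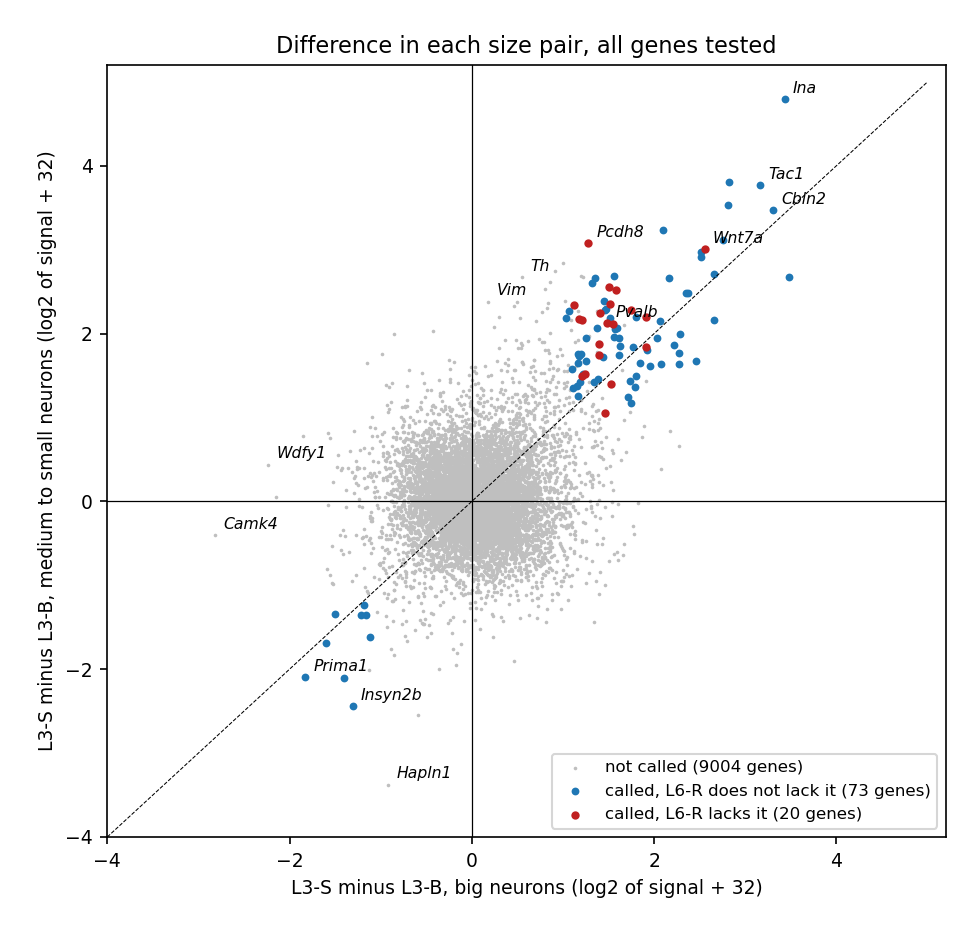
The L3-S minus L3-B difference of log2(signal + 32) in big neurons (horizontal axis) against that in medium to small neurons (vertical axis), 1 point per tested gene. Blue points are called genes whose difference L6-R does not lack (73), red points are called genes that L6-R lacks (20), grey points were not called, and the dashed line marks equal differences. The cloud of uncalled genes is round about 0, and the called genes lie in the 2 corners where both pairs differ the same way.

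Ina encodes alpha-internexin, a neuronal intermediate filament protein of growing and mature axons, and had the largest difference. Its signals were 2.1 and 7.9 on the big and the medium to small L3-B arrays, 336 and 1074 on the L3-S arrays, and 63 and 77.8 on the L6-R arrays. Both L3-B values were at background, and both L3-S values exceeded all others. The difference from L3-B was 4.11 ± 0.35 (SE, adjusted p = 0.00227), and its 2 other probe sets showed 2.25 and 3.10.

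Tac1 encodes the precursor of substance P and neurokinin A, the transmitters that define peptidergic nociceptors. Its signals were 167 and 74.8 in the control, 1758 and 1428 in L3-S, with 5435 and 4090 in L6-R. The 3 codes did not overlap, with L3-S between the control and L6-R. The difference of L3-S from L3-B was 3.47 ± 0.24 (adjusted p = 0.00147), but a second, dimmer probe set showed -0.07.

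Cbln2 encodes a secreted cerebellin that bridges neurexins and glutamate receptors of the delta family across the synapse. It had signals of 29.1 and 46.7 in the control, 570 and 844 in L3-S, with 236 and 400 in L6-R. Its L3-S signals were above those of both other codes, by 3.39 ± 0.22 from L3-B (adjusted p = 0.00147) and by 1.09 from L6-R (adjusted p = 0.0402). The L3-S difference was nearly equal in the big pair (3.30) and the medium to small pair (3.48).

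The genes with the largest differences were examined for letters shared upstream of their starts. RefSeq promoters (GRCm38.p6) were found for 65 of the 84 higher genes and for 7437 of the 9097 tested genes. The 250 bases before each start were searched on both strands for the cAMP response element (TGACGTCA), the AP-1 element (TGANTCA) and the TATA box (TATAAA), none of which spells another within itself. A gene with several starts was counted where any of them held the motif. The cAMP response element was in 2 of the 65 (3.08%) against 3.27% of all tested genes with a promoter, the AP-1 element in 2 (3.08%) against 5.23%, and the TATA box in 7 (10.8%) against 7.31%. The sequences of Ina and Tac1 are shown because these genes had the largest differences and hold none of the 3 motifs in this window. Vav3 was raised in L3-S and not in L6-R. Its upstream starts hold none of the motifs, and its downstream start holds an AP-1 element and a TATA box. The downstream start is shown for that reason, with the motifs in capitals. The window of Ina is chr19:47014431-47014680, that of Tac1 is chr6:7554811-7555060 and that of the Vav3 start is chr3:109573757-109574006, each on the plus strand. A match is a description of letters and not a site of binding.
Ina: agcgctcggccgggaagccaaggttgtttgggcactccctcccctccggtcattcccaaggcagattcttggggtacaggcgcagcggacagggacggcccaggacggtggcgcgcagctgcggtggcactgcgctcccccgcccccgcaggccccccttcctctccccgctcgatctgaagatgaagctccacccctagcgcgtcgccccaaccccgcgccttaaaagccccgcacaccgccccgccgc
Tac1: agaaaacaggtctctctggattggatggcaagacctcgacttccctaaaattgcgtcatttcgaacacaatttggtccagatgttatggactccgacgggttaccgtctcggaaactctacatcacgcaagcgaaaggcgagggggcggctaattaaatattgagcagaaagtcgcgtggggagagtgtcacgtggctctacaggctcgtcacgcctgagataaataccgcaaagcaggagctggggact
Vav3: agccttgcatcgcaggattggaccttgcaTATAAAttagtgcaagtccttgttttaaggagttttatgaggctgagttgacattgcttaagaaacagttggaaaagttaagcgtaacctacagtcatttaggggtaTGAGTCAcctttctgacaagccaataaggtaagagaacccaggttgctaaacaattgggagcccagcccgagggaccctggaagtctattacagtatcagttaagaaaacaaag

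Further genes at the top of the order follow. Fxyd2, the regulatory gamma subunit of the sodium pump, had signals of 153 and 95.3 in the control, 1268 and 1444 in L3-S, with 903 and 822 in L6-R. Both labelled codes were above the control, L3-S by 3.17 ± 0.25 (adjusted p = 0.00227), and the other probe sets of the gene ranged from -0.08 to 3.58. Cadps2, which primes dense-core vesicles for release, had signals of 74.1 and 50.4 in the control, 1152 and 492 in L3-S, with 338 and 380 in L6-R. The big L3-S pool was the brightest, and the difference of 3.07 ± 0.32 (adjusted p = 0.00486) was larger in the big pair (3.48) than in the medium to small pair (2.67). Aqp1, a water channel of small sensory neurons, was at 3 and 16.3 in the control, 167 and 332 in L3-S, with 348 and 382 in L6-R. It was at background in the control only, and its L3-S difference was 2.71 ± 0.25 (adjusted p = 0.00283).

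Acpp encodes an acid phosphatase that splits AMP to adenosine on small sensory neurons. Its signals were 56 and 77.2 in the control, 473 and 822 in L3-S, with 561 and 664 in L6-R, a difference of 2.74 ± 0.24 for L3-S (adjusted p = 0.00232). The labelled codes overlapped each other and neither overlapped the control. Other probe sets of Acpp ranged from -0.41 to 0.73. Plxnc1, a semaphorin receptor, had signals of 150 and 97.7 in the control, 908 and 692 in L3-S, with 1518 and 1268 in L6-R. L3-S again lay between the control, from which it differed by 2.42 ± 0.22 (adjusted p = 0.00283), and L6-R. Adgrg2, an adhesion G protein-coupled receptor encoded on the X chromosome, had signals of 408 and 431 in the control, 2216 and 2556 in L3-S, with 2843 and 2657 in L6-R. This bright gene differed by 2.42 ± 0.22 (adjusted p = 0.00283) and hardly varied between size classes.

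The other genes among the 14 largest have more varied roles. Rgs5 is a regulator of G protein signalling best known from pericytes of small vessels. Its signals were 88.7 and 40.1 in the control, 824 and 977 in L3-S, with 179 and 420 in L6-R, and the L3-S difference was 3.32 ± 0.38 (adjusted p = 0.00938). The L3-S arrays were the brightest, but L3-S and L6-R were not told apart (1.59, adjusted p = 0.0721). Rarres1, a membrane protein induced by retinoids, was at 6.2 and 3.2 in the control, 226 and 274 in L3-S, with 166 and 268 in L6-R, a difference of 2.94 ± 0.25 (adjusted p = 0.00227). It was at background in the control alone. Plp2, a small membrane proteolipid, had signals of 14.1 and 35.9 in the control, 259 and 411 in L3-S, with 1072 and 1601 in L6-R, and differed by 2.68 ± 0.22 (adjusted p = 0.00227). Tceal9, of the TCEAL family encoded on the X chromosome, had signals of 639 and 1469 in the L3-S pools and 419 and 930 in L6-R against a mean log2(signal + 32) of 7.31 in the control, a difference of 2.67 ± 0.31 (adjusted p = 0.00938). In both labelled codes its medium to small pool was the brighter, and the control pools were alike.

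**Figure D2:**
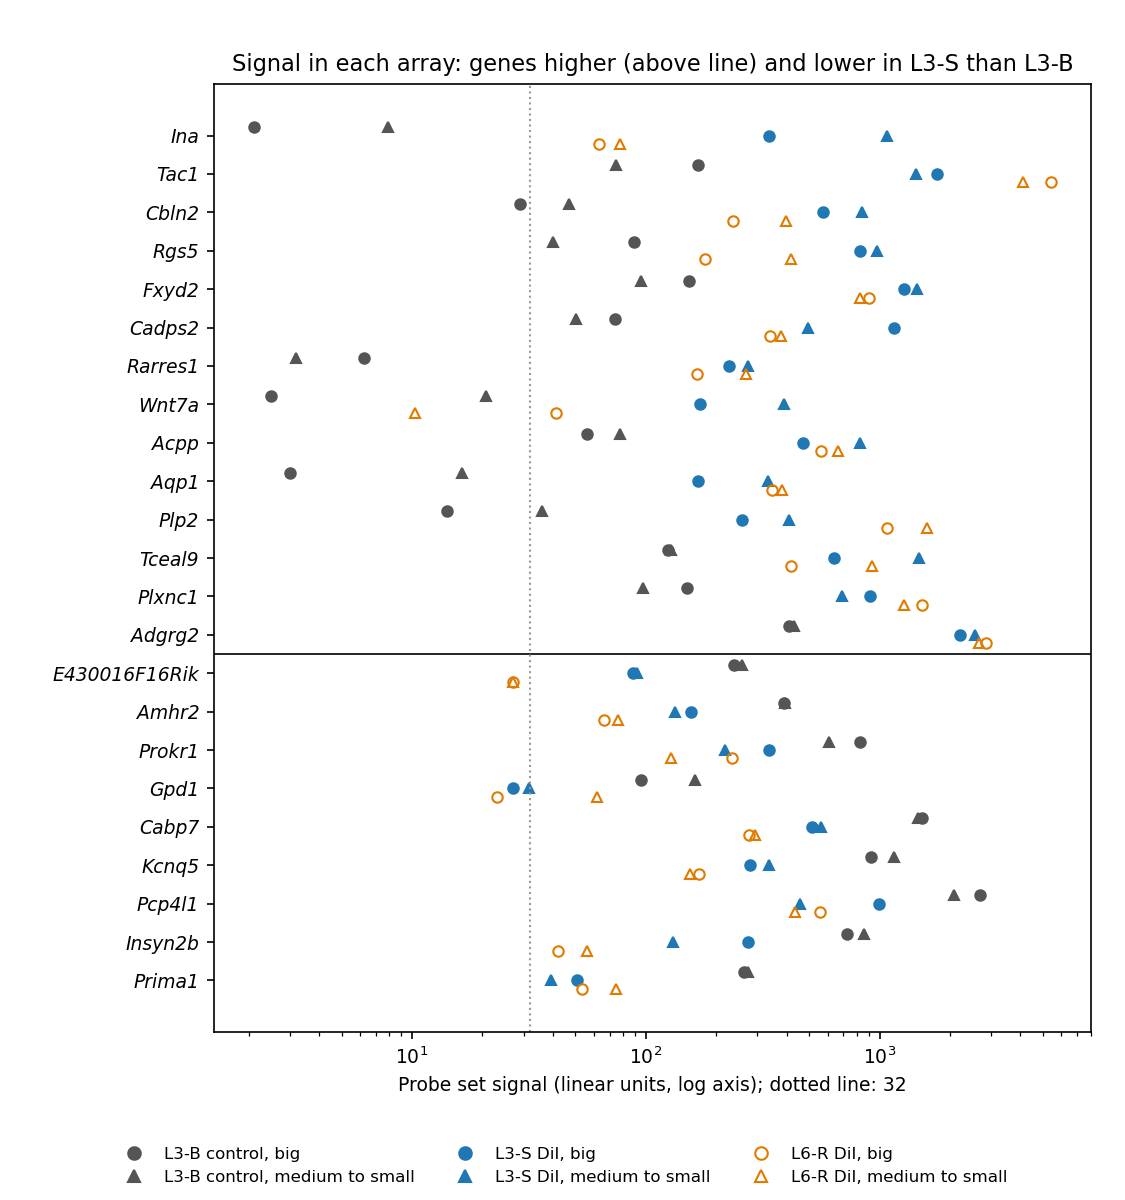
Signal of each array on a log axis for the 14 genes with the largest higher differences in L3-S (above the horizontal line) and the 9 lower genes (below it), with circles for big and triangles for medium to small pools. Grey marks are L3-B, blue marks L3-S and open orange marks L6-R, and the dotted line stands at 32. The L3-S marks of Ina run from 336 to 1074 against 2.1 and 7.9 in L3-B, and L6-R lies on the same side of L3-B as L3-S in each of the 9 lower genes.

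Of 13 tested markers of peptidergic nociceptors 4 rose in L3-S, 0 fell, and the median difference was 0.97 against 0.03 over all genes. Besides Tac1, these were Adcyap1, Prokr2 and Kit. The second probe sets of Tac1 (-0.07) and Kit (-0.16) did not show the rise. Over all tested genes 0.923% were called higher in L3-S and 0.0989% lower. These shares are the background for the L3-S counts of every list below. Adcyap1, the precursor of the neuropeptide PACAP, had signals of 2.3 and 19.3 in the control, 185 and 198 in L3-S, with 428 and 446 in L6-R, a difference of 2.41 ± 0.24 (adjusted p = 0.00399). Its control signals were both under 32, and L3-S lay between the control and L6-R. Among members that were not called, Trpv1, the capsaicin receptor, had signals of 18.7 and 19.6 in the control, 108 and 56.1 in L3-S, with 616 and 392 in L6-R, a difference of 1.12 for L3-S (adjusted p = 0.0999). Trpa1, a channel for irritants, had signals of 15 and 1.5 in the control, 56.1 and 30.2 in L3-S, with 601 and 274 in L6-R, and its difference was 0.90 (adjusted p = 0.169). Calcb, which encodes a calcitonin gene-related peptide, differed by 0.06. In L6-R against L3-B, which shares the L3-B arrays and where 4.66% of all genes were called higher and 2.85% lower, 9 of these 13 markers were higher and 0 lower.

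Of 8 tested markers of non-peptidergic and itch neurons 2 were higher in L3-S, Plxnc1 and Runx1, and the median difference was 0.23. Runx1, a transcription factor of developing nociceptors, had signals of 16.6 and 11.4 in the control, 112 and 247 in L3-S, with 210 and 158 in L6-R, a difference of 2.13 ± 0.33 (adjusted p = 0.0241). Other probe sets of Runx1 ranged from -0.24 to 0.80. Ret, the signalling receptor of the GDNF family, had signals of 4150 and 3775 in the control and 2198 and 2186 in L3-S, and the difference of -0.84 was not called (adjusted p = 0.208). Its co-receptor Gfra1 had signals of 1298 and 2566 in the control and 1004 and 617 in L3-S, with -1.18 (adjusted p = 0.226). Of 5 tested markers of C-fibre low-threshold mechanoreceptors and cold neurons, only Zfp521, a zinc-finger transcription factor, was called, with 115 and 167 in the control and 412 and 799 in L3-S, a difference of 1.83 ± 0.28 (adjusted p = 0.0241); its second probe set showed -0.07. Th, tyrosine hydroxylase, had 41.6 and 30.8 in the control and 76 and 368 in L3-S, so that its difference of 1.61 (adjusted p = 0.186) came mostly from the medium to small pair (2.67, against 0.55 in the big pair).

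Markers of large myelinated-fibre neurons numbered 22 among the tested genes, and 2 were higher, Cadps2 and Pvalb, 0 were lower, and 15 of the 22 differences were negative with a median of -0.19. Ntrk3, the receptor of neurotrophin-3, had signals of 2243 and 2087 in the control, 1156 and 791 in L3-S, with 505 and 448 in L6-R. The codes did not overlap, with L3-S in the middle, but its difference of -1.15 ± 0.23 missed the threshold (adjusted p = 0.0664), and its other probe sets ranged from -1.05 to 0.21. Ntrk2, the receptor of BDNF, had signals of 433 and 191 in the control and 936 and 655 in L3-S, and 1.34 was not called (adjusted p = 0.0833). In L6-R against L3-B 2 of the 22 markers were higher and 9 lower.

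Sort1, Cckar, Pth1r, Crim1 and Pappa2 were also higher in L3-S, and are named together after their values were seen. Sort1 encodes sortilin, a sorting receptor that binds proneurotrophins, and had signals of 20.7 and 67 in the control, 257 and 283 in L3-S, with 83.9 and 148 in L6-R, a difference of 2.06 ± 0.26 (adjusted p = 0.0123). Cckar, a cholecystokinin receptor, rose by 1.96 ± 0.31 (adjusted p = 0.0278), and Pth1r, the parathyroid hormone receptor, by 1.86 ± 0.26 (adjusted p = 0.0173). These 3 genes were not called in L6-R, but their direct differences between L3-S and L6-R were not called either (1.07, 1.10 and 1.07). Crim1, a membrane protein that binds bone morphogenetic proteins, rose by 1.85, and Pappa2, a protease of insulin-like growth factor binding proteins, by 1.99. Of 16 tested receptors of the neurotrophin, GDNF and gp130 families, Sort1 and Kit were called and the median difference was 0.17. Of 13 tested opioid and other G protein-coupled receptors of nociceptors 0 were called, with a median of -0.14. Among the latter, Ptgir, the prostacyclin receptor, had signals of 745 and 851 in the control and 404 and 416 in L3-S (-0.91, adjusted p = 0.12), and F2r, a thrombin receptor, had 4770 and 4794 in the control and 2881 and 2542 in L3-S (-0.81, adjusted p = 0.176). Lpar1, a lysophosphatidic acid receptor, differed by 1.00 (adjusted p = 0.126).

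A number of called genes encode enzymes and other proteins of signalling inside the cell, again gathered after their values were seen. Pde1c, a phosphodiesterase activated by calmodulin, had signals of 198 and 142 in the control, 1001 and 1069 in L3-S, with 1205 and 1288 in L6-R. Both labelled codes lay well above the control and close together, and L3-S differed by 2.41 ± 0.24 (adjusted p = 0.00399), while other probe sets of the gene showed -0.13 to 0.78. Prkg2, a protein kinase activated by cGMP, rose by 1.46, Gnb4, a G protein beta subunit, by 1.41, and Marcks, an actin-binding substrate of protein kinase C, by 1.34. Plcd4, a phospholipase C, rose by 1.46 and Plcxd3, which carries a domain of that enzyme family, by 1.23. Dusp26, a dual-specificity phosphatase, rose by 1.38 from 161 and 153 in L3-B to 455 and 461 in L3-S, and reached 1797 and 1562 in L6-R. Trim25, a ubiquitin ligase, had the smallest called rise, 1.21 ± 0.22 (adjusted p = 0.0485).

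Some of the called genes encode proteins of the actin skeleton, gathered here after their values were seen. Fscn1, an actin-bundling protein of growth cones, had signals of 102 and 139 in the control, 437 and 751 in L3-S, with 1693 and 1574 in L6-R, a difference of 2.00 ± 0.26 (adjusted p = 0.0144). Other probe sets of Fscn1 ranged from -0.19 to 0.42. Tpm4, a tropomyosin, rose by 1.58, Myo1e, a myosin motor, by 1.27, and Pdlim1, an adaptor of actin filaments, by 1.78. Regulators of the small GTPases that control actin were among them too: Dock10 rose by 1.60, Trip10, which interacts with Cdc42, by 1.72, and Cdc42ep3, an effector of Cdc42, by 1.30. Tubb2b, a beta-tubulin of growing neurons, had signals of 653 and 558 in the control, 1510 and 1966 in L3-S, with 3485 and 3542 in L6-R, a difference of 1.47 ± 0.24 (adjusted p = 0.0307). The 3 codes did not overlap, and it was the only one of 11 tested tubulins called, with a list median of 0.04.

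Of 31 tested semaphorins, plexins, ephrins, netrins, slits and their receptors 3 were higher (Plxnc1, Slit2 and Unc5b), 0 were lower and the median was 0.16. Unc5b, a netrin receptor, was at 2.6 and 19.5 in the control, 89.1 and 114 in L3-S, with 217 and 309 in L6-R, a difference of 1.65 ± 0.22 (adjusted p = 0.0164). Plxnd1, another plexin, had 38.6 and 42 in the control and 76.2 and 135 in L3-S (0.90, adjusted p = 0.188). Of 21 tested cadherins and protocadherins 2 were higher, Pcdh8 and Pcdh10, and the median was 0.27. Pcdh10 had signals of 18.4 and 30.1 in the control, 179 and 243 in L3-S, with 284 and 229 in L6-R, a difference of 2.11 ± 0.25 (adjusted p = 0.00978). Pcdh11x differed by 1.15 (adjusted p = 0.0633). Tenm1, a teneurin encoded on the X chromosome, rose by 1.74, Cd44, the hyaluronan receptor, by 1.95 from 4.6 and 13.1 in L3-B to 145 and 108 in L3-S, and Ildr2, an immunoglobulin-domain protein, by 2.04. Timp3, an inhibitor of metalloproteinases in the matrix, rose by 1.92. Of 8 tested cerebellins, neurexins, neuroligins and their partners Cbln2 alone was called and the median was 0.00, with Lrrtm3 at -1.01 (adjusted p = 0.105).

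Of all tested genes 1.02% were called in either direction. Each list of sodium, calcium and potassium channel subunits held called members, and the medians of these 3 lists lay between -0.14 and 0.14. Of 9 tested sodium channel subunits Scn3b was higher, with signals of 83.2 and 60.3 in the control, 263 and 554 in L3-S, with 663 and 514 in L6-R and a difference of 2.01 ± 0.34 (adjusted p = 0.0353). A second Scn3b probe set showed -0.12. Its fellow beta subunit gene Scn2b had 178 and 79.3 in the control and 450 and 687 in L3-S, and its difference of 1.94 fell just short (adjusted p = 0.0534); the list's median was -0.14. Of 12 tested calcium channel subunits Cacna1h, a low-voltage activated channel, was higher, with 53.4 and 30.8 in the control and 168 and 149 in L3-S (1.37 ± 0.24, adjusted p = 0.0451), and the median was -0.04. A second Cacna1h probe set showed 0.06. Of 34 tested potassium channel subunits Kcnip2 and Kcnmb1 were higher, Kcnq5 was lower, and the median was 0.14. Kcnmb1, a beta subunit of the large-conductance calcium-activated channel, rose by 1.42 from 34.6 and 7.9 in L3-B to 142 and 77.7 in L3-S.

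No member was called among 10 TRP channels (median 0.32), 5 GABA-A receptor subunits (0.42), 6 ionotropic glutamate receptor subunits (0.07), 3 nicotinic receptor subunits (0.06), 5 serotonin receptors (0.30) or 9 P2X, acid-sensing, HCN and Piezo channels (0.19), each count being over tested members. Htr3a, a serotonin-gated channel, had signals of 557 and 314 in the control, 1441 and 731 in L3-S, with 4166 and 4559 in L6-R, with 1.23 for L3-S (adjusted p = 0.116). Hcn3, a pacemaker channel, differed by 1.09 (adjusted p = 0.0794), Gabrb1 by 1.01 (adjusted p = 0.236), Gabra2 by -1.03 (adjusted p = 0.222), Htr1b by -0.89 (adjusted p = 0.351) and Chrna3 by 0.87 (adjusted p = 0.216).

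Of 28 tested synaptic vesicle and release genes 2 were higher, Syt1 and Sv2a, and the median was 0.03. Syt1, the calcium sensor of fast release, had signals of 386 and 335 in the control, 1104 and 1175 in L3-S, with 1880 and 1447 in L6-R, a difference of 1.58 ± 0.23 (adjusted p = 0.0196), but its other probe sets lay between -0.20 and 0.71. Of 6 tested sodium pump subunits and FXYD regulators Fxyd2 was called (list median 0.39), with Atp1b3 at 0.76 (adjusted p = 0.258). Of 7 tested carbonic anhydrases and aquaporins Aqp1 was called (median 0.21). Car2, the carbonic anhydrase of large sensory neurons, had 475 and 620 in the control, 868 and 1231 in L3-S, with 44.7 and 168 in L6-R, with 0.89 for L3-S (adjusted p = 0.264). None of 11 annexins and S100 proteins was called (median -0.07), the most different being S100a16 with 4609 and 4372 in the control and 1838 and 2248 in L3-S (-1.13, adjusted p = 0.0664).

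The remaining higher genes have various roles. Aldoc, a glycolytic aldolase, had signals of 661 and 553 in the control, 1882 and 2807 in L3-S, with 1049 and 1317 in L6-R, a rise of 1.87 ± 0.26 (adjusted p = 0.0173). Ak5, a neuronal adenylate kinase, rose by 1.74, Pdia5, a disulfide isomerase of the endoplasmic reticulum, by 2.02, Macrod1, a hydrolase of ADP-ribose, by 1.58, and Lxn, a carboxypeptidase inhibitor, by 1.67. Nrarp, a feedback inhibitor of Notch signalling, rose by 1.46 and Tbx3, a T-box transcription factor, by 1.48, while other probe sets of Tbx3 lay between -0.55 and 0.30. Bex3 and Bex1, related genes on the X chromosome, rose by 1.81 and 1.61. The tetraspan genes Lhfp and Lhfpl2 rose by 1.76 and 1.78, and Mal2, a proteolipid of membrane traffic, by 1.48. Fam102b rose by 1.81, Fam89a by 1.86, D430019H16Rik by 1.88 and D630045J12Rik by 1.68. Of 21 tested sensory neuron transcription factors Runx1 was the only one called (median 0.12), with Meis2 at -0.83 (adjusted p = 0.155), Esrrg at 0.96 (adjusted p = 0.117) and Etv5 at -0.95 (adjusted p = 0.127).

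The reliability of single probe sets differed among the called genes. Of the 93 called genes 59 had more than 1 probe set, and in 22 of these all others lay under 0.5 in the called direction or were opposite. These 22 included Aldoc, Cacna1h, Cdc42ep3, Crim1, Dock10, Fscn1, Ildr2, Inhbb, Kcnip2 and Kcnmb1. The others were Kirrel3, Kit, Nrarp, Pdlim1, Plcd4, Scn3b, Tac1, Tbx3, Wnt7a and Zfp521, with Gpd1 and Prokr1 among the lower genes. In 20 of the 84 higher genes the probe set design can bind more than 1 transcript, among them Ina, Fxyd2, Plp2, Tceal9 and Apoe. Each array being left out in turn, 44 of the 93 stayed called with all 6 omissions, and these included the 14 genes with the largest differences.

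The 9 lower genes were fewer and smaller in size, and each was lower in L6-R too. Prima1, which anchors acetylcholinesterase in neuronal membranes, had signals of 263 and 273 in the control, 50.9 and 39.3 in L3-S, with 53.2 and 74.2 in L6-R. Both labelled codes lay below the control without overlap, with the L3-S arrays the lowest, and L3-S differed by -1.96 ± 0.24 (adjusted p = 0.0104). Kcnq5, a potassium channel subunit of the M-current, had 915 and 1157 in the control, 280 and 338 in L3-S, with 169 and 154 in L6-R, a difference of -1.65 ± 0.23 (adjusted p = 0.018), with other probe sets from -1.82 to 0.01. Prima1 and Kcnq5 were the only lower genes called with each of the 6 arrays left out.

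Insyn2b, of a family of inhibitory synapse proteins, had signals of 724 and 855 in the control, 273 and 131 in L3-S, with 42.1 and 55.9 in L6-R. L3-S differed by -1.88 ± 0.31 from L3-B (adjusted p = 0.0336) and was above L6-R by 1.47 (adjusted p = 0.0459). Pcp4l1 fell from 2699 and 2084 to 998 and 459, a difference of -1.76 ± 0.26 (adjusted p = 0.0211), and Cabp7, a calcium-binding protein, from 1516 and 1465 to 515 and 559, a difference of -1.42 ± 0.22 (adjusted p = 0.0241). Prokr1, a prokineticin receptor, had 825 and 608 in the control, 337 and 218 in L3-S, with 235 and 127.8 in L6-R, a difference of -1.29 ± 0.22 (adjusted p = 0.0399) with 0.06 in its second probe set. Its paralogue Prokr2 went the other way in L3-S. Gpd1, the cytosolic glycerol phosphate dehydrogenase, differed by -1.37, Amhr2, the receptor of anti-Müllerian hormone, by -1.26, and E430016F16Rik by -1.21, where L3-S was also above L6-R by 1.04. Other probe sets of Gpd1 ranged from -0.17 to 0.59. The call for E430016F16Rik was lost when any L3-S or L3-B array was left out.

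L6-R was compared with L3-B in the same fit to see which L3-S differences it lacks. A difference was counted as lacked where L3-S was called against L3-B, called in the same direction against L6-R, and L6-R was not called that way against L3-B. A lacked rise can thus be a smaller rise in L6-R that was not called. In Prokr2 (0.71 in L6-R) and Adcy8 (0.66), among others, both L6-R arrays lay above both L3-B arrays. The comparisons share the L3-B and the L3-S arrays, so they are not independent. Of the 84 higher genes 20 were lacked by L6-R, which is 23.8% of them and 0.22% of the genes tested, and of the 9 lower genes 0 were. Another 40 higher genes were called in both codes with no difference called between them. In 13 the rise was further in L6-R (Tac1, Plp2, Fscn1, Pappa2, Cd44, Fam89a, Unc5b, Bex1, Tpm4, Mal2, Dusp26, Plcxd3 and Trim25) and in 2, Ina and Cbln2, further in L3-S. The remaining 9 (Sort1, Cckar, Aldoc, Pth1r, Pdlim1, Trip10, D630045J12Rik, Plcd4 and Cdc42ep3) were not called in L6-R, but the codes were not told apart. Over all tested genes, 683 (7.51%) were called in L6-R against L3-B and 289 (3.18%) in L3-S against L6-R, with 1.91% of the genes tested higher and 1.26% lower in L3-S. In the lacked genes Wnt7a, Adcy8, Inhbb and Plcl2 the L3-B and L6-R means lay under the filter bound of 6.41. These genes were therefore tested only through their L3-S arrays. When genes of any level were admitted, 3 genes were lacked, of which 1 was among the 20. The count of lacked genes was 40 without the big L3-B array, 38 without the big L3-S array and 9 without the medium to small L3-S array.

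In 4 of the 20 genes L6-R was called on the opposite side of the control. Pvalb, the calcium buffer parvalbumin of proprioceptive and some touch neurons, had signals of 723 and 756 in the control, 2084 and 3413 in L3-S, with 69.1 and 31.9 in L6-R. The 3 codes did not overlap, with L3-S 1.81 ± 0.32 above the control (adjusted p = 0.0435) and L6-R at -3.26 (adjusted p = 0.000801). Without either L3-B array or without the medium to small L3-S array the L3-S call for Pvalb was lost. Pcdh8, a protocadherin induced by activity, had signals of 267 and 154 in the control, 694 and 1541 in L3-S, with 23.9 and 65.5 in L6-R. Its rise of 2.18 ± 0.40 (adjusted p = 0.048) was uneven, with 1.28 for big and 3.08 for medium to small neurons, and L6-R was at -1.68.

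Ano1, a calcium-activated chloride channel of nociceptors, had signals of 65.9 and 86 in the control, 248 and 571 in L3-S, with 7.8 and 18 in L6-R. It rose by 1.93 ± 0.27 in L3-S (adjusted p = 0.0173) and was at background in L6-R (-1.27, adjusted p = 0.0259). Clec2l, a C-type lectin-like protein, had 454 and 730 in the control, 1308 and 1554 in L3-S, with 97.6 and 168 in L6-R. L3-S was higher by 1.26 ± 0.23 (adjusted p = 0.0485) and L6-R was at -1.92. The L3-S call for Clec2l was lost when any L3-S or L3-B array was left out.

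Secreted signals were among the lacked genes. Wnt7a, a Wnt ligand, had signals of 2.5 and 20.7 in the control, 170 and 391 in L3-S, with 41.2 and 10.3 in L6-R. The L3-S arrays lay above all others, with a difference of 2.78 ± 0.40 (adjusted p = 0.0184), but the other probe sets lay between -0.75 and -0.26. Wnt7a passed the filter on mean level only through these L3-S arrays. Wls, the carrier that Wnt proteins need for secretion, had 51.4 and 58.7 in the control, 188 and 272 in L3-S, with 67.4 and 58.4 in L6-R, a rise of 1.57 ± 0.24 (adjusted p = 0.0241). Slit2, a repulsive guidance cue that binds Robo receptors, had 120 and 130 in the control, 538 and 712 in L3-S, with 132 and 190 in L6-R. The control and L6-R lay together, L3-S rose by 2.05 ± 0.23 (adjusted p = 0.00754), and the other probe sets showed 0.27 to 0.62. Inhbb, the beta B subunit of inhibins and activins, had 31.3 and 56.8 in the control, 151 and 203 in L3-S, with 12.8 and 18.7 in L6-R, a rise of 1.47 ± 0.22 (adjusted p = 0.0241) with -0.24 in the second probe set.

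Receptors and their signalling partners followed. Prokr2, a prokineticin receptor, had signals of 52.1 and 52 in the control, 249 and 377 in L3-S, with 80.8 and 136 in L6-R, a rise of 2.01 ± 0.24 (adjusted p = 0.0106) that a second probe set showed at 1.53. Kit, the receptor of stem cell factor, had 33.9 and 68 in the control, 216 and 327 in L3-S, with 80.7 and 78 in L6-R. It rose by 1.88 ± 0.25 (adjusted p = 0.0144), with -0.16 in its second probe set. Adcy8, a calcium-stimulated adenylyl cyclase, had 22.2 and 12.5 in the control, 130 and 224 in L3-S, with 39.1 and 52.7 in L6-R, a rise of 2.05 ± 0.27 (adjusted p = 0.0144). Vav3, a signalling protein whose downstream start is printed above, had 73.9 and 66.7 in the control, 278 and 394 in L3-S, with 33.8 and 34.6 in L6-R. It rose by 1.83 ± 0.24 (adjusted p = 0.0144), and L6-R lay at the background level. Gprc5b, an orphan G protein-coupled receptor, rose by 1.83 ± 0.26 and Plcl2, a phospholipase C-like protein, by 1.63 ± 0.24.

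Dpp10 and Kcnip2 encode auxiliary subunits of fast inactivating potassium channels, and both were among the lacked genes. Dpp10 had signals of 214 and 130 in the control, 505 and 791 in L3-S, with 178 and 176 in L6-R, a rise of 1.73 ± 0.30 (adjusted p = 0.0401) that a second probe set showed at 2.02. Kcnip2 had 79 and 68.3 in the control, 219 and 422 in L3-S, with 89 and 101 in L6-R, a rise of 1.68 ± 0.28 (adjusted p = 0.0336), with 0.16 and 0.33 in the other probe sets. In both genes L6-R lay with the control. Sv2a, a synaptic vesicle protein, had 92.6 and 65.1 in the control, 256 and 401 in L3-S, with 117 and 115 in L6-R, a rise of 1.68 ± 0.27 (adjusted p = 0.0299). Kirrel3, an immunoglobulin-family adhesion molecule, rose by 2.03 ± 0.28, Wipf3, an actin regulator, by 1.38 ± 0.22, and Cdkn2b, an inhibitor of cyclin-dependent kinases, by 1.35 ± 0.22. Promoters were found for 17 of the 20 lacked genes. Of these, 1 (5.88%) held the cAMP response element, 1 (5.88%) the AP-1 element and 3 (17.6%) the TATA box. Over all tested genes with a promoter the shares were 3.27%, 5.23% and 7.31% in the same order.

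**Figure D3:**
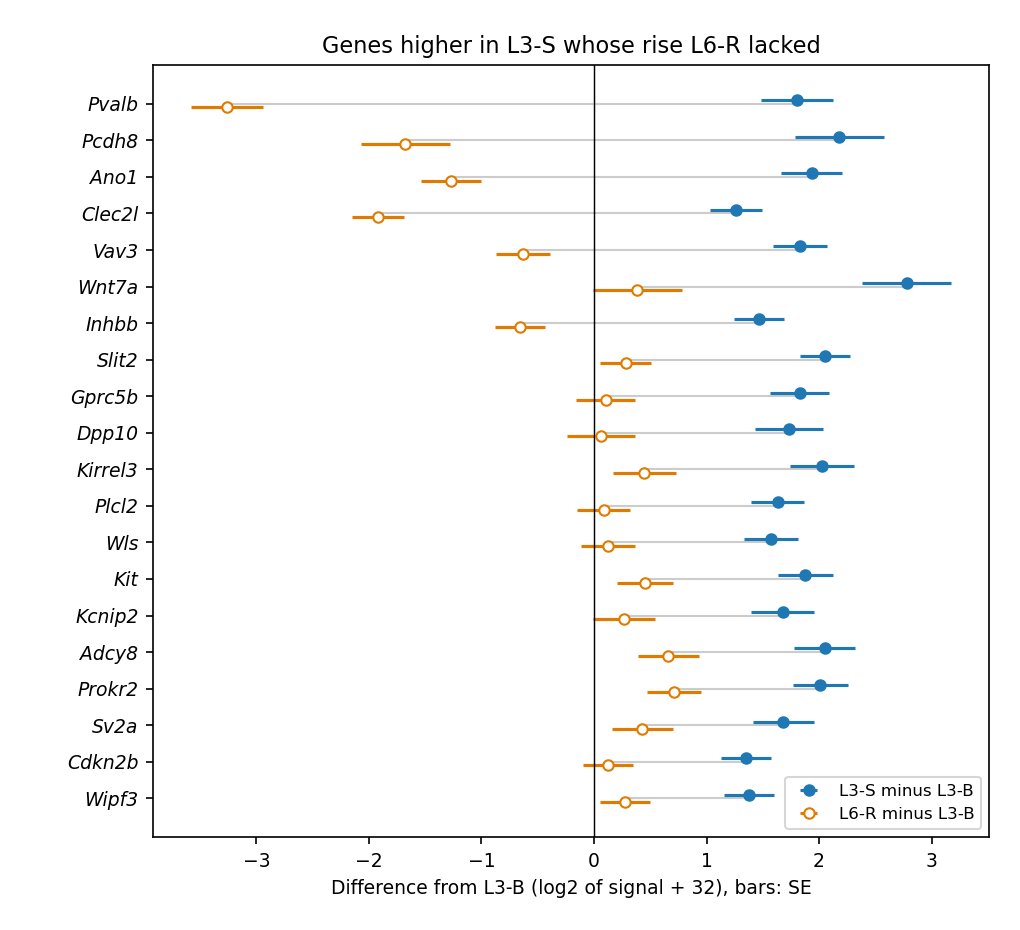
Difference from L3-B of L3-S (filled blue) and of L6-R (open orange) for the 20 genes whose rise L6-R lacked, on the log2(signal + 32) scale with bars of 1 SE, in the order of the direct L3-S minus L6-R difference. The blue points lie between 1.26 (Clec2l) and 2.78 (Wnt7a), and the orange points lie between -3.26 (Pvalb) and 0.71 (Prokr2).

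Some genes stood apart between L3-S and L6-R without a called difference between L3-S and the control. Meis2, a homeobox transcription factor, had signals of 1970 and 1504 in the control, 1094 and 827 in L3-S, with 197 and 130 in L6-R, so that L3-S was above L6-R by 2.35 (adjusted p = 0.00152). Hox genes of groups 1 to 8, which record the position of a neuron along the body axis, had 8 tested members. Of these, 0 were called in L3-S against L3-B (median -0.09), where 1.02% of all tested genes were called. In L6-R against L3-B 4 were lower, where 2.85% of all tested genes were called lower. Hoxb5 had 546 and 458 in the control, 334 and 289 in L3-S, with 88.7 and 107 in L6-R, and the L3-S difference of -0.64 was not called (adjusted p = 0.354). Hoxd1 had 436 and 527 in the control, 344 and 211 in L3-S, with 20.6 and 41.1 in L6-R (-0.76 for L3-S, adjusted p = 0.4). Hoxb6 differed by -0.76 between L3-S and L3-B (adjusted p = 0.236), and L3-S and L6-R were not told apart in it (0.41, adjusted p = 0.456). Of 4 tested Hox genes of groups 9 to 13 none was called and the median was -0.25. Of 2 tested genes of the Y chromosome none was called (median 0.11).

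Over all tested genes 0.923% were called higher in L3-S against L3-B and 4.66% in L6-R. At the L3-S share, lists of stress and injury genes of this length would hold few or no calls. Of 25 tested nerve injury and regrowth genes only Tubb2b was called and the median was 0.33, whereas 17 of them were higher in L6-R against the same L3-B arrays. Cdkn1a, a cell cycle inhibitor induced by injury, had signals of 4.3 and 31.5 in the control, 56.3 and 218 in L3-S, with 847 and 718 in L6-R. L3-S lay between the other codes, and its difference of 1.63 was not called (adjusted p = 0.0999). Sprr1a, an injury-induced gene of regrowing axons, had 19.6 and 3.1 in the control, 64.4 and 44.7 in L3-S, with 294 and 136 in L6-R, with 1.02 for L3-S (adjusted p = 0.116). Stmn4 differed by 1.03 (adjusted p = 0.167), and Tubb6, a beta-tubulin, had 37.8 and 13.6 in the control and 78.4 and 50.6 in L3-S against 984 and 904 in L6-R. Of 21 tested immediate early and heat shock genes 0 were called (median 0.14), with Btg2 at 0.71 (adjusted p = 0.234) and Nr4a1 at 0.68 (adjusted p = 0.523), and 7 were higher in L6-R. Of 21 tested growth arrest and DNA damage genes 0 were called (median -0.03), with Btg1 at 1.15 (adjusted p = 0.282).

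Of 11 tested interferon-response genes 0 were called (median 0.29). Ifit1 had signals of 3.2 and 39.1 in the control and 47.1 and 311 in L3-S (1.72, adjusted p = 0.102), Ifit2 had 50.5 and 39.5 in the control and 81.8 and 327 in L3-S (1.40, adjusted p = 0.206), and B2m differed by -0.76 (adjusted p = 0.202). Both Ifit genes were brightest in the medium to small L3-S pool. All 19 cholesterol synthesis genes were tested and had positive differences with a median of 0.18, but 0 were called, and the smallest adjusted p was that of Sqle (0.55, adjusted p = 0.636).

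Markers of other cell types moved as follows. Of 14 tested markers of satellite glia and Schwann cells, the cells that wrap sensory neurons, Apoe alone was called, and the median difference was 0.36, with 0.08 for big and 0.50 for medium to small neurons. Apoe, a lipid carrier that glia secrete, had signals of 540 and 913 in the control, 2764 and 3745 in L3-S, with 2394 and 5224 in L6-R, a rise of 2.14 ± 0.25 (adjusted p = 0.00938). Fabp7, a lipid-binding protein of satellite glia, had 272 and 250 in the control, 675 and 1766 in L3-S, with 499 and 1308 in L6-R, a difference of 1.95 (adjusted p = 0.0505), and Sox10, the glial transcription factor, had 38.7 and 7.4 in the control and 90.9 and 105 in L3-S (1.30, adjusted p = 0.147). The summed signal of the 21 glial markers on the array was 16595 and 15432 in the control and 17189 and 21164 in L3-S, and 3 of the 21 lay under 32 on each of these 4 arrays. In the big pair Apoe alone rose by more than this sum did. Of the 14 tested glial markers 9 differences were positive and 5 negative. For connective tissue and vessels, 6 markers were tested and Rgs5 was called, with a median of 0.88. Igfbp4 was at 1.58 (adjusted p = 0.0869), Col1a2 at 0.93 (adjusted p = 0.178) and Dcn at 0.83 (adjusted p = 0.408). The summed signal of the 23 such markers was 1080 and 773 in the control and 2342 and 2544 in L3-S. Most of that rise was in Rgs5 and Igfbp4. Of the 23 markers 9, with Pecam1 and Cdh5 among these, lay under 32 on each of the 4 arrays. Of 27 markers of blood and immune cells 18 lay under 32 on each of these arrays, and the summed signal was 416 and 329 in the control and 496 and 409 in L3-S. The part of glial or vessel RNA in the differences of Apoe, Rgs5 and the other higher genes was not tested.

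**Figure D4:**
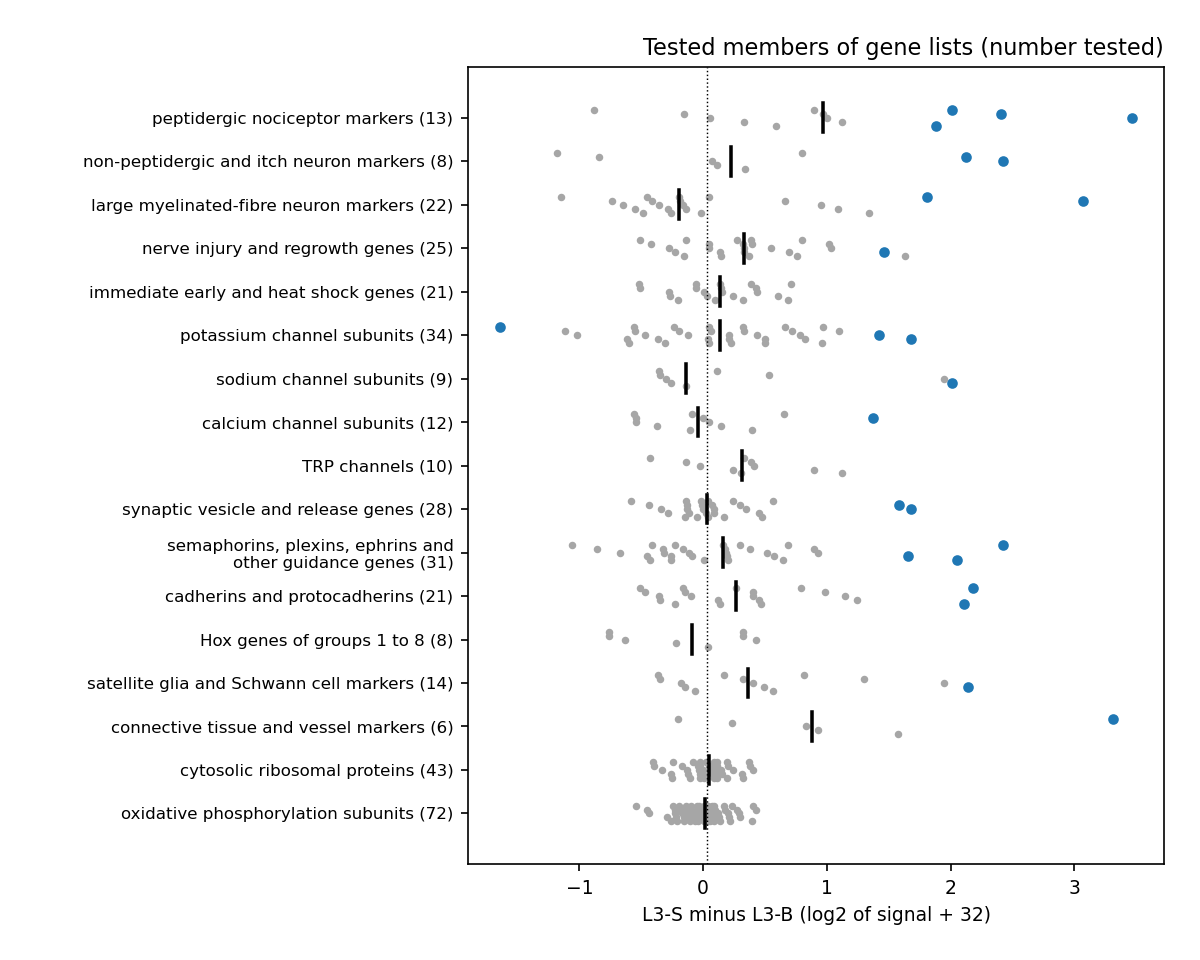
L3-S minus L3-B difference of log2(signal + 32) for the tested members of 17 gene lists, 1 point per gene, with blue points for called genes, grey points for the others and a bar at each list's median. The dotted line stands at the median of all tested genes, 0.03. The median of the peptidergic nociceptor markers lies at 0.97 and that of the large myelinated-fibre markers at -0.19, and the ribosomal and oxidative phosphorylation genes crowd about 0.

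The medians of a pair of gene lists had opposite signs in the size pairs. Of 72 tested oxidative phosphorylation subunits 0 were called, and their median was 0.01, with -0.37 for big and 0.29 for medium to small neurons. Of 43 tested cytosolic ribosomal proteins 0 were called, and their median was 0.05, with -0.29 in the big and 0.33 in the medium to small pair. Beside these shifts, the Actb 3'/5' ratio was higher in L3-B in the big pair (13.9 against 5.42) and higher in L3-S in the medium to small pair (12 against 3.73), so the pool with the higher ratio had the higher median of both lists in each pair. The part of RNA quality in these shifts was not tested.

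Genes whose difference was much larger in 1 size pair than in the other are given as values, since 1 array against 1 has no replicate. In the big pair, Camk4, a calmodulin-dependent kinase, had 295 in the control pool and 14.4 in the L3-S pool, with 196 and 140 in the medium to small pools. Cep85 had 367 in the control pool and 58.2 in the L3-S pool, and Wdfy1 had 384 and 56.5, while their medium to small pools were at 50.5 to 86.9. Tnfrsf12a, the receptor of the cytokine TWEAK, went the other way, from 6.8 in L3-B to 105 in L3-S, with 88.8 and 87.5 in the medium to small pools. In the medium to small pair, Hapln1, a link protein of the matrix, had 1170 in the control pool and 83.7 in the L3-S pool, against 555 and 279 in the big pair. Ptgfr, a prostaglandin receptor, had 975 and 141, against 696 and 451. Vim, an intermediate filament protein of glia and connective tissue, had 195 and 1148, against 618 and 703, and Th is described above. None of these 8 genes was called over both pairs, where Hapln1 was at -2.15 (adjusted p = 0.0943) and Ptgfr at -1.57 (adjusted p = 0.147). Kcne4, a potassium channel regulator, showed the reverse, nearly equal differences of 1.11 and 1.08 that were not called (adjusted p = 0.0775).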

How the data were processed

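Each of 6 pools of neurons from mouse dorsal root ganglia gave total RNA for 1 Affymetrix array. The deposited values are the authors' linear signal intensity for 45037 probe sets and 64 control probe sets. The 2% trimmed mean of each array was 150, so the values were taken as already scaled. The summary method is not given in the sources used here. Detection calls were not analysed here.

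Samples were grouped by title code, with size class pairing the arrays. Values were transformed to log2(signal + 32). Of the probe sets 34945 carried 1 gene symbol in the platform annotation, 932 several and 9160 none, and a RefSeq gene table changed 0 symbols. Each of 18193 genes was represented by its brightest probe set on average over the arrays, and the upper 50% by mean log2 value (9097 genes, from 6.41) were tested. R 4.3.3 with limma 3.58.1 (lmFit, eBayes; 2 residual and 6.46 prior degrees of freedom) fitted code plus size class to all 6 arrays, a two-sided moderated test with Benjamini-Hochberg adjustment and a threshold of 0.05. The scripts were tested on simulated data. Alternatives were quantile normalization, a smaller and a larger pseudocount, other filters, other probe set rules, trended and robust variance priors, array weights, an Actb ratio covariate, fits without the size class or with fewer arrays, and a crossed pairing.

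Genes were named by rule: the 14 largest called differences per direction, the 8 largest lacked by L6-R, the 6 largest shared by both labelled codes, 4 per size pair with the largest excess there, and up to 4 per gene list with the smallest p. Of 159 such genes 99 are described, and 47 other called genes were added after their values were seen. The comparison and its 37 gene lists were chosen with earlier results of these data known.

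Same-numbered arrays are the same size class per the labels. The deviations of the big L3-B and L3-S arrays from their code means correlated at -0.214. Arrays of the same size class thus did not deviate together, and the pairing by size class rests on the labels and not on the data.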

Additional observations from a re-analysis of the deposited data

Results flagged for a closer look

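The following genes are listed because the differences of L3-S and of L6-R from the shared L3-B arrays were themselves different: the direct L3-S minus L6-R difference was called at an adjusted p under 0.05 in the limma fit, where 1.91% of all tested genes were called higher in L3-S than in L6-R and 1.26% lower. Values are on the log2(signal + 32) scale.

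Among genes whose rise in L3-S was lacked by L6-R, L3-S was above L6-R by 5.07 in Pvalb, 3.86 in Pcdh8, 3.20 in Ano1, 3.18 in Clec2l, 2.46 in Vav3, 2.39 in Wnt7a and 2.12 in Inhbb. The difference was 1.77 in Slit2, 1.72 in Gprc5b, 1.67 in Dpp10, 1.58 in Kirrel3, 1.55 in Plcl2 and 1.45 in Wls. It was 1.42 in Kit, 1.41 in Kcnip2, 1.39 in Adcy8, 1.30 in Prokr2, 1.25 in Sv2a, 1.23 in Cdkn2b and 1.11 in Wipf3.

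Genes called in both labelled codes against L3-B also differed between them. L3-S was above L6-R by 2.64 in Ina and 1.09 in Cbln2, both higher than the control, and by 1.47 in Insyn2b and 1.04 in E430016F16Rik, both lower than the control. It was below L6-R in Bex1 (-2.35), Plp2 (-1.90), Dusp26 (-1.80), Pappa2 (-1.79), Tpm4 (-1.76), Tac1 (-1.55), Cd44 (-1.48), Fscn1 (-1.46), Mal2 (-1.24), Trim25 (-1.24), Fam89a (-1.15), Unc5b (-1.13) and Plcxd3 (-1.08).

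Genes not called in L3-S against L3-B were also told apart between the labelled codes. L3-S was above L6-R by 3.20 in S100a16, 3.11 in Car2, 2.78 in Esrrg, 2.35 in Meis2, 2.29 in Hoxd1, 2.24 in Ptgfr, 1.95 in F2r, 1.40 in Hoxb5 and 1.09 in Kcne4. It was below L6-R in Tubb6 (-3.35), Trpa1 (-2.57), Cdkn1a (-2.45), Trpv1 (-2.24), Htr3a (-2.05), Chrna3 (-1.79), Gabrb1 (-1.70) and Sprr1a (-1.45).

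The oxidative phosphorylation subunits and the cytosolic ribosomal proteins are listed because their median L3-S minus L3-B differences had opposite signs in the size pairs. The medians were -0.37 in the big and 0.29 in the medium to small pair for the former, and -0.29 and 0.33 for the latter. The difference between the pairs was not tested.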

How the results depend on the processing

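The direction of all 93 called genes was kept in every alternative that tested them, and the count of calls depended on the settings. In place of 93 genes called and 20 lacked by L6-R, there were 46 and 7 with a pseudocount of 1, 14 and 3 with no filter on dim genes, 21 and 1 in the upper 25% of genes, 41 and 9 with probe sets averaged within genes, 48 and 13 with array weights, and 512 and 99 with the Actb ratio in the model. With every probe set tested 0 and 0 were called. The fit to the 4 L3-S and L3-B arrays called 171 and gives no lacked genes. Quantile normalization (84 and 19), a larger pseudocount (65 and 17), a trend (104 and 21) and robust eBayes (93 and 20) stayed within 1.5 times. The main split of 84 higher and 9 lower became 52 and 13 with the larger pseudocount and 391 and 121 with the Actb ratio.

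Size class is the pairing of the arrays. With no replicate block in the fit, 112 genes were called and 25 were lacked by L6-R, and the calls of Clec2l, Gpd1, Gprc5b, Kcnmb1, Marcks, Plcd4, Prokr1 and Pth1r were lost. A crossed pairing of the 4 L3-S and L3-B arrays, chosen after seeing the data, called 354 genes (284 higher, 70 lower), against 77 from those arrays with no replicate block.

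With each array left out in turn, 61 to 202 genes were called and 9 to 40 were lacked by L6-R. Of the 93 called genes 6 lost their call without the big L3-B array (Amhr2, Clec2l, E430016F16Rik, Plcd4, Prkg2 and Pvalb), 41 without the medium to small L3-B array, 9 without the big L3-S array (Cacna1h, Clec2l, E430016F16Rik, Kcnmb1, Mal2, Plcxd3, Prkg2, Prokr1 and Trim25), 44 without the medium to small L3-S array and 0 without either L6-R array. The calls that held with each of the 6 arrays left out were those of Acpp, Adcy8, Adcyap1, Adgrg2, Ak5, Aldoc, Ano1, Apoe, Aqp1, Cadps2, Cbln2, Cd44, D630045J12Rik, Fam102b, Fam89a, Fscn1, Fxyd2, Ildr2, Ina, Kcnq5, Kirrel3, Kit, Lhfp, Lhfpl2, Macrod1, Pcdh10, Pde1c, Pdia5, Plp2, Plxnc1, Prima1, Prokr2, Pth1r, Rarres1, Rgs5, Slit2, Sort1, Tac1, Tceal9, Tenm1, Tpm4, Unc5b, Vav3 and Wnt7a. Wdfy1, which was not called, was at -0.90 with all arrays and between -2.22 and 0.43 with 1 array left out; the positive value came without the big L3-B array, which held its highest signal. Causes of the other changes were not tested. Signals under 32, which made up 55.3% to 59.5% of the probe sets on each L3-S and L3-B array, resolve no order of genes.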
